A study of Homo sapiens with 60 samples.

Results

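YAP and TEAD target genes were followed through 60 RNA-seq libraries of A549 cells, a human non-small cell lung carcinoma line, harvested 24 h after the addition of a hot-water extract or of vehicle. The group comprised 9 genes, selected by symbol from the 60675 in the expected-count table: CCN1, CCN2, ANKRD1, AMOTL1, AMOTL2, LATS2, AJUBA, AXL and PTPN14. They were chosen from measured values: an earlier account of these data had shown AMOTL2 and CCN1 lower with Saengmaek-san at 500 µg/mL than with vehicle, so that contrast is given as values with no test. All 9 genes were among the 17256 that passed the filter on low counts. The extracts came from the single herbs Menthae Herba and Saposhnikoviae Radix and from the herbal mixtures Okbyeongpung-san, Soyo-san, Guibi-tang and Saengmaek-san, each at 500, 100 and 20 µg/mL with 3 libraries a dose, and from Soshiho-tang at the same doses with 1 library each. Vehicle was 0.1% DMSO per the sample labels and 2% DMSO per the series text, with 3 libraries. The labels of the extract libraries give no DMSO content. In every comparison with vehicle, the extract and a possible difference in DMSO therefore cannot be told apart. The series text also states that more toxic extracts were given at a lower top dose with the same dilution steps; the sample labels name 500, 100 and 20 µg/mL for all 7 extracts, and doses are given here as labelled. The cells are 1 cultured line, and no label states that replicate libraries were grown as separate cultures, so every p-value measures the spread between these libraries, which may be technical. In bulk RNA, fewer cells with a transcript and less transcript per cell cannot be told apart.

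YAP and its paralogue TAZ are coactivators without a DNA-binding domain of their own, and they act on genes mainly through the TEAD transcription factors. The Hippo kinases, with LATS1 and LATS2 at the end of the cascade, phosphorylate YAP and keep it in the cytoplasm, whereas spread cells on a stiff substrate under high actin tension hold YAP in the nucleus. Several targets feed back on the pathway, among them LATS2 and AMOTL2, whose products restrain YAP. In lung epithelium the pathway is known for its part in growth and regeneration.

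TEAD factors bind the core GGAATG, read on either strand as GGAATG or CATTCC. RefSeq promoter windows (GRCh38.p14, 250 bases before to 50 after an annotated start) were matched for 8 of the 9 genes, all but CCN1, with 11 windows in all because AMOTL2, AJUBA and AXL each have 2. The core lay in the 250 upstream bases of 6 of these 11 windows, against 11.9% of all 35116 windows. CCN2 held 3 matches at -169, -104 and -95 from its start, a number that 0.0826% of all windows reached, and ANKRD1 held 2 at -220 and -128, a number that 0.94% reached. In AMOTL2, AJUBA and AXL the match lay before the second, inner start only, at -69, -59 and -212. PTPN14 held 1 match, at -200. In LATS2 the core fell past the start, at position 10, and in AMOTL1 these letters are not in the window. The single windows of PTPN14 and AMOTL1 lie wholly inside the gene spans given below. They thus leave out the bases before the outer end of those genes. The proximal ANKRD1 match also lies inside the span of its gene. The AP-1 heptamer (TGACTCA or TGAGTCA), the element of a partner factor of TEAD at enhancers, was in none of the 11 windows and in 4.2% of all upstream stretches. A match of letters is not evidence of binding. The stretches with matches are shown 5′ to 3′ on the strand of each gene, in lower case with the core in capitals, because this is the element through which YAP is known to reach its targets. CCN2 is given with its full upstream 250 bases (chr6:131951373-131951622, minus strand), and the others with the 30 bases around each match: ANKRD1 (chr10:90921290-90921319 and chr10:90921198-90921227, minus strand), AMOTL2 (chr3:134374499-134374528, minus strand), AJUBA (chr14:22976884-22976913, minus strand), AXL (chr19:41226531-41226560, plus strand) and PTPN14 (chr1:214551785-214551814, minus strand).
CCN2: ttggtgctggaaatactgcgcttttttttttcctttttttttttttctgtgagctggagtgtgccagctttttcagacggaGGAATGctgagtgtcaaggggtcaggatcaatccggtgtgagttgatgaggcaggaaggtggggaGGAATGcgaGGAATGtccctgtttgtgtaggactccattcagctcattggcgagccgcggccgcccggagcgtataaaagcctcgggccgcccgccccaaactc
ANKRD1 distal: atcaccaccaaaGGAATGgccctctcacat
ANKRD1 proximal: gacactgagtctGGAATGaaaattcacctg
AMOTL2: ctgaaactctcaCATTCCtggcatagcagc
AJUBA: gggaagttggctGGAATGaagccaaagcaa
AXL: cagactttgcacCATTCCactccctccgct
PTPN14: cctcccgggccgCATTCCtccccgcccccg

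Library totals ran between 18330592 and 35308791 expected counts. All 9 epithelial and A549 markers had a median of at least 1 CPM (the usual depth-scaled count, relative to the library total), with a summed level between 13320 and 17560 CPM, and the 4 endothelial markers summed to at most 0.44 CPM. Of the fibroblast markers COL1A1 and COL3A1 passed 1 CPM, with medians of 31.7 and 5.08 CPM, while DCN and COL1A2 had a median of 0. Of the leukocyte markers CD68 and CD14 passed it, and CD3E and MS4A1 were at 0 in all libraries. The libraries fell into 2 stretches when taken in their listed order: after the 31st library the first principal component shifted and the share of mitochondrially encoded counts averaged 16.1% ± 2.26 (SD, n = 29), against 11.9% ± 0.746 before it (SD, n = 31). The 3 vehicle libraries open the order and carry a set number of their own in their library names. On the early side were all libraries of vehicle and of the single herbs, with 10 of 18 from Guibi-tang and Saengmaek-san. On the late side were the remaining 8 of those and every library of Soshiho-tang, Okbyeongpung-san and Soyo-san. For these 3 extracts, treatment and side of the step cannot be told apart in a direct comparison with vehicle.

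With the extracts, 6 of the 9 genes had a fold change below 0 in all 17 tested comparisons with vehicle, and the other 3 had values on both sides of 0. CPM are relative to the library total, and the fold changes below are scaled by the trimmed mean of M-values (TMM). Leaving aside the 3 Saengmaek-san libraries at 500 µg/mL, AMOTL2 and LATS2 were lower in each of the 54 other extract libraries than in every vehicle library, a separation that 0.191% of the 17256 genes showed. For LATS2 the gap was narrow, with 36.57 CPM in the highest extract library and 36.94 CPM in the lowest of vehicle. CCN1, ANKRD1 and AXL were lower than every vehicle library in 52 of the 54, and CCN2 in 47. For these counts and those that follow, the share of all genes that reached them is not given. PTPN14 was below every vehicle library in 23 of these extract libraries and above every one in 27. AJUBA was below in 32 and above in 7, and AMOTL1 below in 16 and above in 14. Where groups of 3 libraries are said below not to overlap, the share of all genes that did so is not given. All comparisons with vehicle share the same 3 vehicle libraries, which are also those of the contrast that chose the genes.

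**Figure D1:**
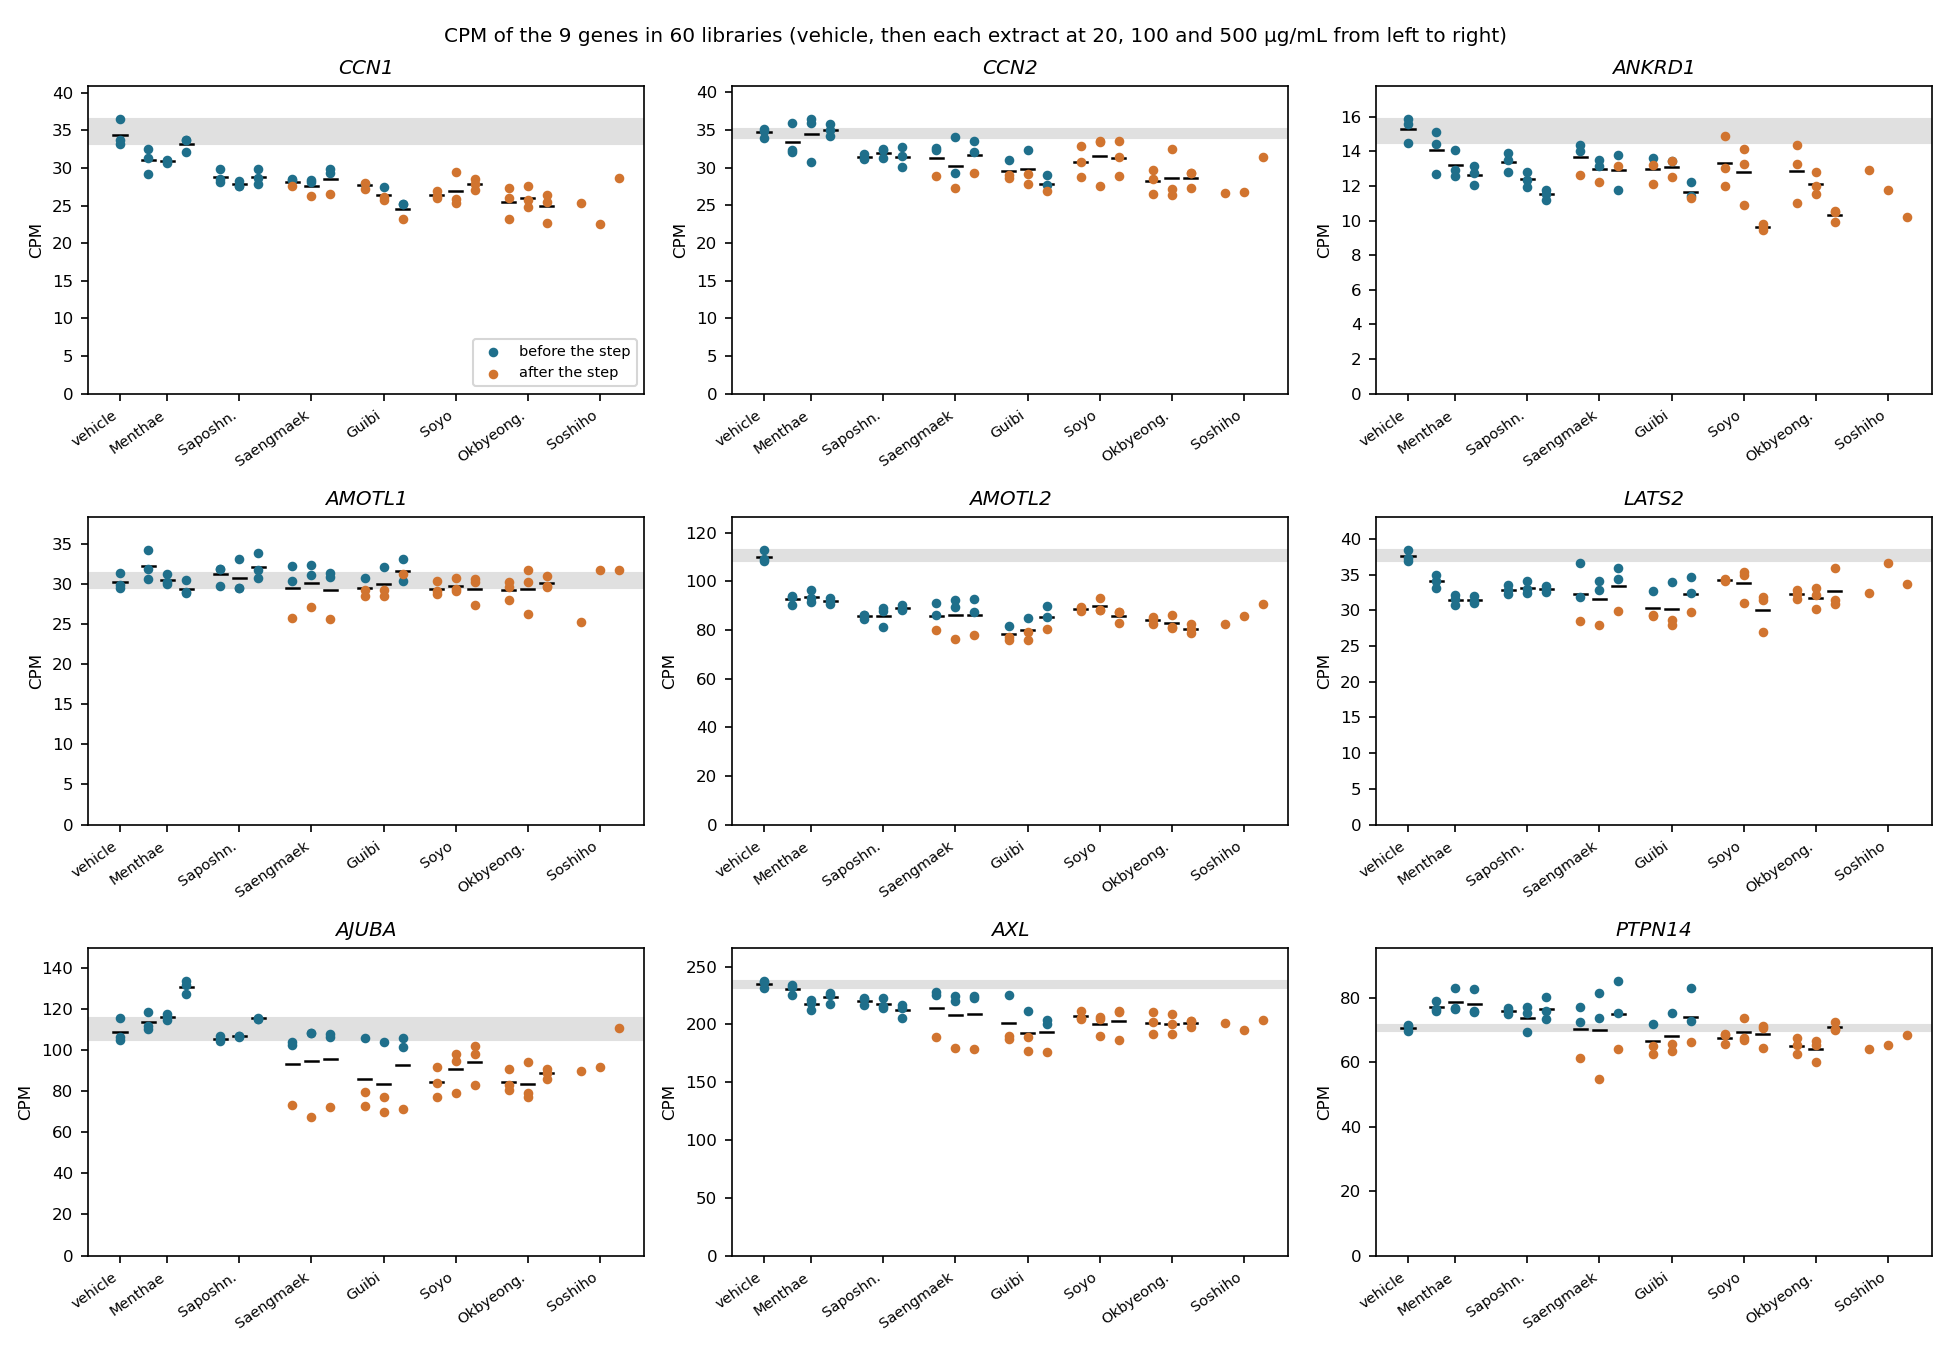
CPM (y axis, from 0) of each gene in every library; x axis, vehicle and then each extract with 20, 100 and 500 µg/mL from left to right. Points are libraries coloured by their side of the step in the library order, black bars are group means of 3 libraries, and the grey band is the range of vehicle. All 57 extract libraries lie under the band for AMOTL2 and LATS2, for LATS2 by a narrow margin at the nearest. For AMOTL1, AJUBA and PTPN14 they lie on both sides of it.

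At 500 µg/mL, between 3 and 6 of the 9 genes fell against vehicle in each of the 5 extracts tested, and none rose (edgeR quasi-likelihood test over 17256 genes, Benjamini-Hochberg adjusted p under 0.05, the threshold for a call throughout). With Menthae Herba 3 fell, ANKRD1, AMOTL2 and LATS2, where 3.43% of all genes fell and 3.34% rose. With Saposhnikoviae Radix 5 fell (CCN1, ANKRD1, AMOTL2, LATS2 and AXL), against 0.643% of all genes falling and 0.921% rising. With Guibi-tang 6 fell, the same 5 and CCN2, against 1.78% falling and 2.63% rising. With Soyo-san 5 fell, those of Saposhnikoviae Radix, against 2.93% falling and 3.11% rising. With Okbyeongpung-san 6 fell, those of Guibi-tang, against 1.43% falling and 1.96% rising. The median log2 fold change over the 9 genes was -0.10 for Menthae Herba, -0.20 for Saposhnikoviae Radix, -0.30 for Guibi-tang, -0.18 for Soyo-san and -0.26 for Okbyeongpung-san, where the median over all genes lay between -0.00 and 0.01. Without the second Saposhnikoviae Radix library the count of that extract was 3, as LATS2 (adjusted p = 0.0545) and AXL (adjusted p = 0.0545) were no longer called.

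The called genes at the lower doses also all fell. At 100 µg/mL the genes that fell numbered 3 for Menthae Herba, 3 for Saposhnikoviae Radix, 2 for Saengmaek-san, 4 for Guibi-tang, 3 for Soyo-san and 6 for Okbyeongpung-san. Of all genes tested, 0.417%, 0.296%, 0.255%, 0.539%, 0.811% and 0.643% fell in these 6 comparisons, in the same order of extracts. At 20 µg/mL they numbered 1, 3, 2, 4, 2 and 4 in that order, where 0.11%, 0.278%, 0.145%, 0.551%, 0.956% and 0.487% of all genes fell. None of the 9 genes rose in any of the 12, where 0.272% to 1.04% of all genes rose, shares at which a count of 0 among 9 genes says little. These calls summed to 37, and to 23 when the third vehicle library was left out. The heat map of fold changes shows that AMOTL2 carried a call in every tested column and CCN1 in all but 2, both of them Menthae Herba.

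**Figure D2:**
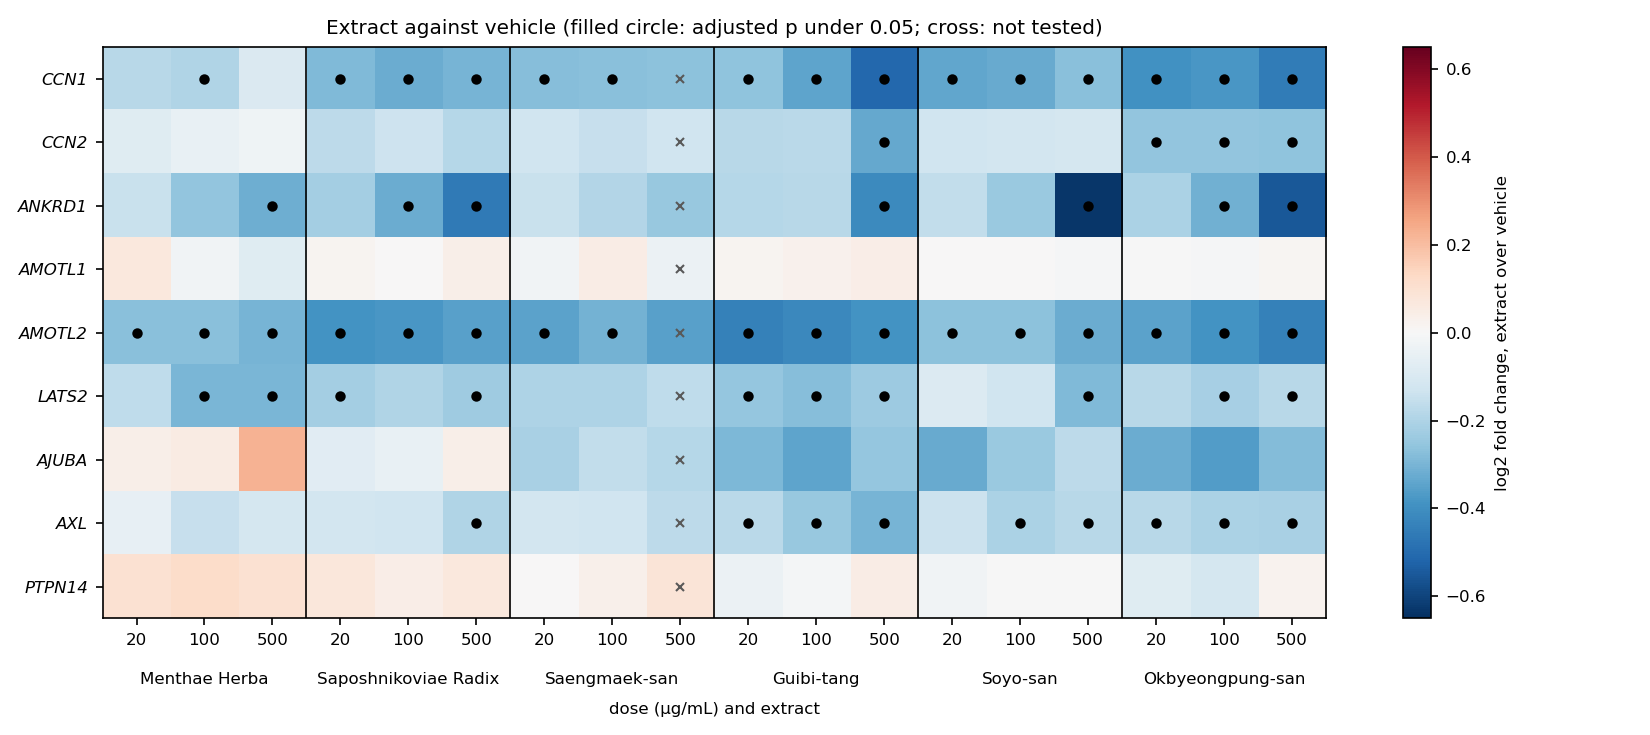
Log2 fold change of each gene (rows), extract over vehicle, for 6 extracts at 20, 100 and 500 µg/mL (columns), from an edgeR fit of 57 libraries; blue is lower with extract. A filled circle marks an adjusted p under 0.05 and a cross the untested Saengmaek-san contrast at 500 µg/mL; AMOTL2 is blue in all 18 columns, at -0.26 to -0.44, and AMOTL1 stays between -0.08 and 0.07.

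AMOTL2 (GRCh38 chr3:134355874-134375479) and AMOTL1 (chr11:94706431-94876753) encode angiomotin-like scaffolds that bind YAP and hold it outside the nucleus. AMOTL2 had 91.9, 90.6 and 93.0 CPM with Menthae Herba at 500 µg/mL, 88.4, 90.1 and 88.6 CPM with Saposhnikoviae Radix, and 109, 108 and 113 CPM with vehicle. The highest extract library of all had 96.4 CPM, so extract and vehicle did not overlap. AMOTL2 fell in all 17 tested comparisons, with log2 fold changes of -0.26 to -0.44, and was called in all 102 fits that left out 1 library of either group (highest adjusted p = 0.000958). In fits of 2 groups alone, Saengmaek-san at 100 and 20 µg/mL was not called (adjusted p = 0.382 and 0.052). In the untested contrast Saengmaek-san at 500 µg/mL gave 86.0 ± 7.63 CPM and vehicle 110.1 ± 2.41 CPM (SD, n = 3 each), a log2 difference of -0.35. Over the 6 extracts the median log2 fold change of AMOTL2 was -0.35 at 20, -0.34 at 100 and -0.35 at 500 µg/mL. The median at 500 µg/mL includes the untested Saengmaek-san contrast that chose the gene. AMOTL1 averaged 29.4 ± 0.88 CPM with Menthae Herba at 500 µg/mL and 30.2 ± 1.03 CPM with vehicle (SD, n = 3 each), and passed the test in none of the 17 comparisons. Its log2 fold changes ran between -0.08 and 0.07, with a standard error of 0.06 in each comparison at 500 µg/mL. The third of the family, AMOT, had 0.132 CPM in vehicle and did not pass the filter.

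CCN1 (chr1:85580761-85583962) and CCN2 (chr6:131948176-131951373) encode secreted matricellular proteins that bind integrins and are common readouts of YAP activity. CCN1 had 25.2, 25.2 and 23.3 CPM with Guibi-tang at 500 µg/mL, 22.7, 26.5 and 25.5 CPM with Okbyeongpung-san, and 33.2, 33.7 and 36.5 CPM with vehicle. Every library of the first 2 groups lay below all 3 of vehicle. The log2 fold changes were -0.51 (SE 0.05, adjusted p = 1.78e-09) for Guibi-tang and -0.45 (SE 0.05, adjusted p = 5.21e-08) for Okbyeongpung-san. CCN1 fell in 15 of the 17 comparisons, and in 11 without the third vehicle library, which had the highest CCN1 of the 3. Menthae Herba stood closest to vehicle, with 33.2 ± 0.97 CPM at 500 µg/mL against 34.5 ± 1.81 CPM (SD, n = 3 each; log2 fold change -0.10, edgeR adjusted p = 0.298). In the untested contrast Saengmaek-san at 500 µg/mL gave 28.6 ± 1.74 CPM, a log2 difference from vehicle of -0.27. CCN2 followed with smaller values: 27.6, 29.03 and 26.96 CPM with Guibi-tang at 500 µg/mL, against 33.9, 34.9 and 35.2 CPM with vehicle. The groups did not overlap, and the log2 fold change was -0.33 (SE 0.06, adjusted p = 0.000134). CCN2 fell in 4 of the 17 comparisons, those of Guibi-tang at 500 µg/mL and of Okbyeongpung-san at all 3 doses, with 2 left when the second or the third vehicle library was omitted. The Okbyeongpung-san call at 500 µg/mL (log2 fold change -0.26, adjusted p = 0.00503) was lost without the third library of that extract (adjusted p = 0.0586).

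ANKRD1 (chr10:90912096-90921276), a nuclear ankyrin-repeat protein best known from cardiac muscle, was the lowest of the 9 in CPM. It had 9.44, 9.79 and 9.62 CPM with Soyo-san at 500 µg/mL, 9.90, 10.6 and 10.5 CPM with Okbyeongpung-san, and 15.9, 14.5 and 15.6 CPM with vehicle. Both extract groups lay wholly below vehicle. The log2 fold changes were -0.63 (SE 0.08, adjusted p = 7.79e-08) and -0.55 (SE 0.08, adjusted p = 3.68e-06). ANKRD1 fell at 500 µg/mL with all 5 extracts tested, at 100 µg/mL with Saposhnikoviae Radix and Okbyeongpung-san, and at 20 µg/mL with none. Both calls at 100 µg/mL were lost without the first vehicle library (adjusted p = 0.111 and 0.0915) or the third (adjusted p = 0.108 and 0.104), and without the third library of the extract (adjusted p = 0.0884 and 0.133). The median log2 fold change over the 6 extracts was -0.17 at 20, -0.25 at 100 and -0.44 at 500 µg/mL. The last of these medians includes the untested Saengmaek-san contrast.

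LATS2 (chr13:20973032-21061547), the Hippo kinase whose transcription YAP drives, had 27.02, 31.9 and 31.4 CPM with Soyo-san at 500 µg/mL, 32.1, 31.1 and 31.3 CPM with Menthae Herba, and 36.9, 38.5 and 37.3 CPM with vehicle. No extract library reached the vehicle range. LATS2 fell in 10 of the 17 comparisons, at log2 fold changes of -0.18 to -0.30, and in 5 when the second vehicle library, its highest, was omitted. The call with Okbyeongpung-san at 500 µg/mL (-0.18, adjusted p = 0.0391) was lost without the first, the second or the third vehicle library (adjusted p = 0.0589, 0.178 and 0.0939) and without the first or second library of the extract (adjusted p = 0.195 and 0.258). With the side of the step in the library order as a covariate it was -0.08 (adjusted p = 0.366). That with Saposhnikoviae Radix at 500 µg/mL (-0.23, adjusted p = 0.00779) was lost without the second vehicle library (adjusted p = 0.0778).

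AJUBA (chr14:22971174-22982642) and PTPN14 (chr1:214348696-214552449) encode other regulators of the pathway, a LIM-domain protein that binds LATS kinases and a tyrosine phosphatase that binds YAP. AJUBA had 134, 132 and 127 CPM with Menthae Herba at 500 µg/mL, against 106, 105 and 116 CPM with vehicle. All 3 extract libraries were above all 3 of vehicle, and the log2 fold change was 0.22, short of a call over all 57 libraries (SE 0.11, adjusted p = 0.256). Over the 31 libraries before the step alone, which hold all libraries of both groups, it was 0.23 with a smaller error (SE 0.03, adjusted p = 1.20e-05). With Soyo-san and Okbyeongpung-san at 500 µg/mL AJUBA was at -0.17 and -0.28 against vehicle, not called; with the side of the step as a covariate the values turned to 0.24 (adjusted p = 0.00447) and 0.13 (adjusted p = 0.145). Without the filter on low counts the Menthae Herba difference was called (adjusted p = 0.00608), and so were lower levels with Guibi-tang (adjusted p = 0.00107) and Okbyeongpung-san (adjusted p = 0.000143) at 500 µg/mL. PTPN14 averaged 78.1 ± 3.98 CPM with Menthae Herba at 500 µg/mL and 70.8 ± 1.04 CPM with vehicle (SD, n = 3 each), and all 3 extract libraries exceeded all 3 of vehicle. Such separation of 3 libraries from 3 says little alone. The log2 fold change of PTPN14 there, 0.10, was not called (edgeR adjusted p = 0.41), nor was that of any other of the 17 comparisons.

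AXL (chr19:41219203-41261766), a receptor tyrosine kinase for the ligand GAS6, was the most abundant of the 9 also per length, with 45.6 CPM per kb of exon in vehicle against 3.01 for AMOTL1, the lowest. It had 201, 204 and 176 CPM with Guibi-tang at 500 µg/mL, against 238, 232 and 236 CPM with vehicle. The groups did not overlap, and the log2 fold change was -0.30 (SE 0.05, adjusted p = 1.07e-05). AXL fell in 9 of the 17 comparisons, in 5 without the first vehicle library and in 3 without the third. The calls at 500 µg/mL for Soyo-san (-0.18, adjusted p = 0.0111) and Okbyeongpung-san (-0.21, adjusted p = 0.00352) were both lost with the side of the step as a covariate, at -0.05 (adjusted p = 0.441) and -0.08 (adjusted p = 0.146). The Soyo-san call was also lost without the third vehicle library (adjusted p = 0.053) or the first of the extract (adjusted p = 0.105). The Saposhnikoviae Radix call (-0.20, adjusted p = 0.0119) was lost without the first or the third vehicle library (adjusted p = 0.0543 and 0.0686) and without the third library of that extract (adjusted p = 0.109).

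Across the step in the library order itself 4 of the 9 genes were called, where 43.7% of all genes were called in either direction, a share close to that of the 9. In the fit with the side of the step as a covariate, which rests on the Saengmaek-san and Guibi-tang groups that span it, AJUBA was lower after the step by a log2 difference of -0.41 (SE 0.03, adjusted p = 4.67e-14), PTPN14 by -0.16 (adjusted p = 5.39e-05), AXL by -0.13 (adjusted p = 3.22e-07) and LATS2 by -0.10 (adjusted p = 0.00563). Within Saengmaek-san the 3 libraries after the step had 67.5 to 73.1 CPM of AJUBA, against 102.5 to 108.6 CPM in the 6 before it. CCN1, CCN2, ANKRD1, AMOTL1 and AMOTL2 had no called difference across the step, with coefficients between -0.04 and 0.05. These coefficients are on the TMM scale; in CPM, AMOTL2 within Saengmaek-san had 76.5 to 79.8 in the 3 libraries after the step, against 86.0 to 92.9 in the 6 before it, where its coefficient was -0.03. With this covariate AMOTL2 fell in 17 of 17 comparisons with vehicle, CCN1 in 16 and LATS2 in 10. ANKRD1 fell in 9, AXL in 7 and CCN2 in 5, while AJUBA rose in 2 and PTPN14 in 1. Of all genes, 0.406% to 7.08% fell and 0.574% to 5.77% rose in these 17. The AXL and LATS2 totals mix calls lost and gained. AXL lost its calls with Soyo-san at 500 and 100 µg/mL, Okbyeongpung-san at all 3 doses and Guibi-tang at 20 µg/mL. It gained calls with Menthae Herba at 500 and 100 µg/mL and Saposhnikoviae Radix at 100 and 20 µg/mL. LATS2 lost those with Okbyeongpung-san at 500 and 100 µg/mL. It gained others with Saposhnikoviae Radix at 100 and Menthae Herba at 20 µg/mL. Among the 9 tested comparisons that could be made from libraries before the step alone, AMOTL2 fell in 9, CCN1 and LATS2 in 8, ANKRD1 and AXL in 6 and CCN2 in 3. AJUBA fell in 1 of these 9 and rose in 1, where 0.375% to 7.7% of all genes fell and 0.654% to 7.52% rose. The vehicle libraries hold the first 3 places of the order and a set number of their own, so vehicle and place in the order cannot be told apart for any of the genes.

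**Figure D3:**
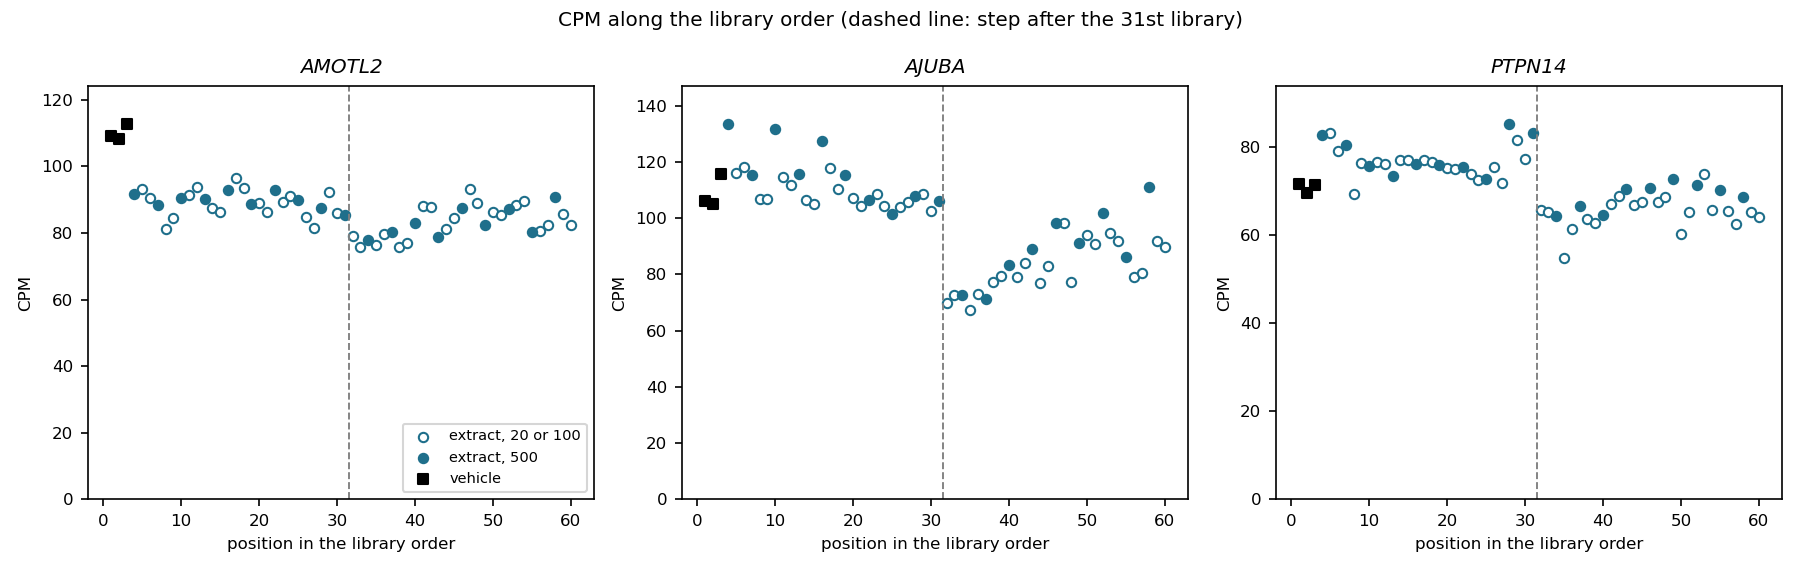
CPM (y axis, from 0) of AMOTL2, AJUBA and PTPN14 in the 60 libraries (x axis, position in the listed order); filled circles, extracts at 500 µg/mL; open circles, extracts at 20 or 100 µg/mL; black squares, vehicle; dashed line, the step. AMOTL2 is high in the 3 vehicle libraries at the left only, at 108 to 113 CPM, whereas AJUBA and PTPN14 drop at the step.

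The comparison of 500 with 20 µg/mL of the same extract uses no vehicle library. Of the 9 genes, 1 fell with Guibi-tang, where 0.249% of all genes fell and 0.748% rose, and 1 fell with Soyo-san, where 0.284% fell and 0.33% rose. None was called with Menthae Herba (1.54% of all genes fell and 0.898% rose), Saposhnikoviae Radix (0.0522% and 0.029%), Okbyeongpung-san (0.0% and 0.0985%) or Saengmaek-san (0.0% and 0.0%). At an unadjusted p under 0.05 in edgeR, 11.4%, 3.56%, 3.84% and 2.72% of all genes differed in these 4 comparisons.

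ANKRD1 with Soyo-san gave the largest change with dose among the 9. It had 9.44, 9.79 and 9.62 CPM at 500 µg/mL, against 13.01, 14.9 and 12.01 CPM at 20 µg/mL, with no overlap. The log2 fold change was -0.47 (SE 0.08, adjusted p = 0.000182); it was -0.48 (adjusted p = 0.0164) over the libraries after the step and was not called in a fit of these 2 groups alone (adjusted p = 0.103). ANKRD1 was lower at 500 than at 20 µg/mL in all 6 extracts, by log2 fold changes of -0.10 (Saengmaek-san) to -0.47, and the libraries did not overlap with Saposhnikoviae Radix (11.2, 11.8 and 11.6 against 12.8, 13.9 and 13.5 CPM) and Okbyeongpung-san (9.90, 10.6 and 10.5 against 13.3, 14.3 and 11.03 CPM). With Okbyeongpung-san the log2 fold change of -0.34 was not called (adjusted p = 0.0701); without the third library at 20 µg/mL, the lowest of its group, it was -0.43 and called (adjusted p = 0.0118). CCN1 with Guibi-tang had 25.2, 25.2 and 23.3 CPM at 500 µg/mL, against 27.9, 28.1 and 27.2 CPM at 20 µg/mL. The groups did not overlap, and the log2 fold change was -0.25 (SE 0.05, adjusted p = 0.00716). This call was lost without the second library at 500 µg/mL (adjusted p = 0.066), without the second at 20 µg/mL (adjusted p = 0.115) and in a fit of these 2 groups alone (adjusted p = 0.426). AJUBA with Menthae Herba, at 134, 132 and 127 CPM with 500 µg/mL against 118, 112 and 110 CPM with 20 µg/mL, had a log2 fold change of 0.19 that was not called over all libraries (adjusted p = 0.579) and was called over those before the step (adjusted p = 0.000302). AXL with Guibi-tang (-0.12, adjusted p = 0.252) was called with the side of the step as a covariate (adjusted p = 0.00122). LATS2 with Soyo-san (-0.20, adjusted p = 0.0803) was called with that covariate (adjusted p = 0.0219) but not over the libraries after the step alone, which hold both of its groups (-0.20, adjusted p = 0.249).

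**Figure D4:**
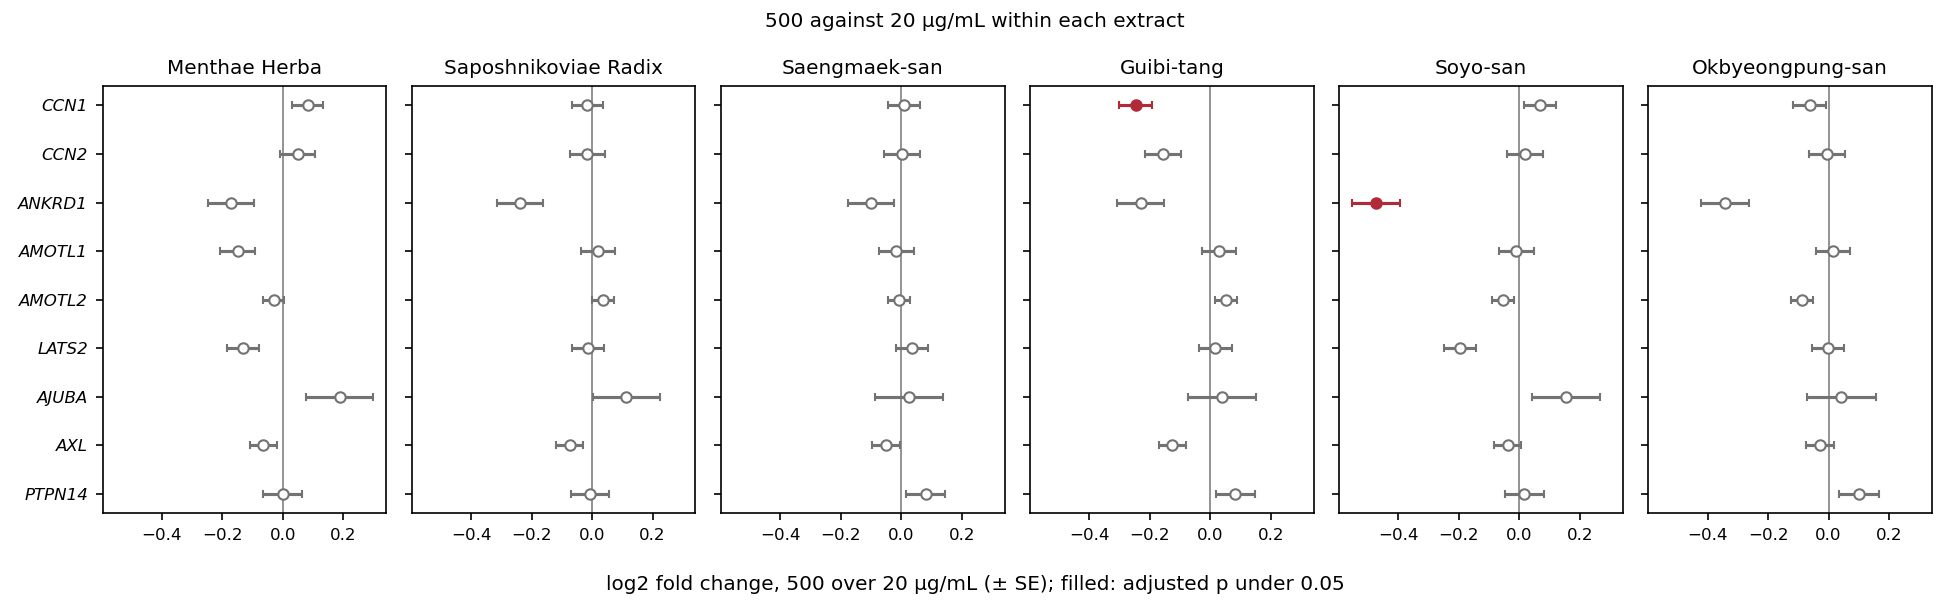
Log2 fold change of each gene between 500 and 20 µg/mL (x axis, 500 over 20, bars ± SE of the edgeR fit) in 6 extracts; filled red points have an adjusted p under 0.05. ANKRD1 is left of 0 in all 6 extracts and called with Soyo-san at -0.47, and CCN1 is called with Guibi-tang at -0.25.

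Extracts whose library names share a set number were set against each other at 500 µg/mL. CCN1 was higher with Menthae Herba, at 32.1, 33.8 and 33.7 CPM, than with Saposhnikoviae Radix, at 28.7, 27.8 and 29.9 CPM. It was the 1 gene of the 9 called there (log2 fold change 0.21, SE 0.05, adjusted p = 0.0247), where 1.47% of all genes were called in either direction. The call was lost without the second or the third Menthae Herba library (adjusted p = 0.161 and 0.109) or the first or second of Saposhnikoviae Radix (adjusted p = 0.0824 and 0.152). CCN1 was also higher with Saengmaek-san, at 29.9, 29.3 and 26.6 CPM, than with Guibi-tang, at 25.2, 25.2 and 23.3 CPM. This was again the only gene of the 9 called (log2 fold change 0.24, SE 0.05, adjusted p = 0.00893; 1.0% of all genes called). It was lost without the first Saengmaek-san library (adjusted p = 0.0572) or the second Guibi-tang library (adjusted p = 0.0703), and the Saengmaek-san libraries are those of the contrast that chose CCN1. Between Soyo-san and Okbyeongpung-san none of the 9 was called, where 0.133% of all genes were and 5.52% had an unadjusted p under 0.05. CCN1 was at 0.18 there (SE 0.05, adjusted p = 0.295). Over the libraries before the step alone, AJUBA was also called between Menthae Herba and Saposhnikoviae Radix (0.19, adjusted p = 0.000595) and AXL between Saengmaek-san and Guibi-tang (0.16, adjusted p = 0.00966). The change between 500 and 20 µg/mL differed between the 2 extracts of a pair for none of the 9 genes, where 0.197% of all genes differed for Menthae Herba and Saposhnikoviae Radix, 0.296% for Saengmaek-san and Guibi-tang, and 0.029% for Soyo-san and Okbyeongpung-san. Unadjusted p-values under 0.05 in edgeR were reached by 5.35%, 5.91% and 4.48% of all genes.

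Soshiho-tang, with 1 library a dose, has no replicate check. AMOTL2 had 82.3 CPM at 20 (exact Poisson 95% interval 78.6 to 86.2), 85.8 at 100 (82.1 to 89.7) and 90.8 at 500 µg/mL (86.9 to 94.7), each below the 108 to 113 CPM of vehicle; such intervals cover counting error only. ANKRD1 had 12.9 CPM at 20 (11.5 to 14.5), 11.8 at 100 (10.4 to 13.2) and 10.2 at 500 µg/mL (8.94 to 11.6). The intervals of ANKRD1 at 20 and 500 µg/mL overlap slightly, and those of neighbouring doses do. AJUBA at 500 µg/mL, 111 CPM (107 to 115), lay within the vehicle range and above the other libraries after the step, which reached 102 CPM.

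Among themselves the 9 genes moved together only in part. After each library was centred on its side of the step, CCN1 and CCN2 had a Pearson correlation of log2 CPM of 0.68 over the 60 libraries and 0.67 over the 57 without vehicle. AMOTL2 and CCN1 had 0.57 with vehicle and 0.40 without it. ANKRD1 was nearly unrelated to AMOTL2 without vehicle (0.04), and AMOTL1 ran against CCN1 (-0.32). Of 10940 genes with a mean of at least 5 CPM, those most like CCN1 were CCN2 (0.68), AMOTL2 (0.57), VIM (0.57), FOSL1 (0.56) and DRAP1 (0.55). Those most like CCN2 were ADM (0.68), CCN1 (0.68), KRT80 (0.66), RBM3 (0.61) and MRPL11 (0.58). Those most like AMOTL2 were SFMBT2 (0.78), ANKRD40 (0.71), ADNP2 (0.67), WNT7B (0.66) and GSE1 (0.65). Of these, SFMBT2, ANKRD40 and GSE1 were, like AMOTL2, below vehicle in all 57 extract libraries. The likeness was taken over all 60 libraries with vehicle, so such a shared gap is partly built into the choice. Outside Saengmaek-san at 500 µg/mL, 0.191% of the 17256 genes were below vehicle in all 54 extract libraries. The points of each correlation share library, depth and composition, and no test was made.

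Some factors and regulators of the pathway were called at 500 µg/mL. Of all genes, 0.643% to 3.43% fell there and 0.921% to 3.34% rose against vehicle. At such shares the few calls on these short lists say little. Of 8 measured YAP, TAZ, TEAD and VGLL genes, YAP1 had 86.2 ± 3.00 CPM in vehicle (SD, n = 3) and was called in no comparison of 500 µg/mL with vehicle or with 20 µg/mL. TEAD1, the most abundant TEAD, fell with Menthae Herba at 500 µg/mL to 376 ± 4.18 CPM, against 424 ± 7.73 CPM with vehicle (log2 fold change -0.21, adjusted p = 0.00128) and 427 ± 10.9 CPM at 20 µg/mL (-0.20, adjusted p = 0.00452; SD, n = 3 each). With Soyo-san at 500 µg/mL the TEAD repressor VGLL4 fell (-0.21, adjusted p = 0.0397) and TEAD2 rose (0.21, adjusted p = 0.0388), and no other factor was called. Of 17 measured kinases and upstream regulators, WWC1, a scaffold that activates LATS kinases, fell with Menthae Herba against vehicle (-0.19, adjusted p = 0.0108) and against 20 µg/mL (-0.21, adjusted p = 0.00593). The kinase TAOK2 fell with Soyo-san against vehicle (-0.19, adjusted p = 0.021). Some of these genes, called or not, lay mostly on the same side of vehicle in CPM. The share of all genes with such counts is not given, and CPM take no account of the step in the library order. Of the 57 extract libraries, TEAD4 was below every vehicle library in 53 and above in 1, and NF2 below in 51 and above in 5. Others leaned the other way, with TEAD2 below in 2 and above in 44, and TAOK3 below in 10 and above in 40. YAP1 was below in 22 and above in 19.

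Other published YAP and TAZ targets, 15 genes all measured, were called in both directions. At 500 µg/mL against vehicle 4 fell with Menthae Herba, 1 with Saposhnikoviae Radix, 3 with Guibi-tang, 2 with Soyo-san and 1 with Okbyeongpung-san, and 1 rose with each of Soyo-san and Okbyeongpung-san. Of all genes, 3.43%, 0.643%, 1.78%, 2.93% and 1.43% fell in these 5 comparisons, and 3.11% and 1.96% rose with Soyo-san and Okbyeongpung-san. The list medians, -0.05, -0.05, -0.00, 0.09 and 0.04 in that order, stood beside -0.00 to 0.01 for all genes. GADD45A, a stress-response gene, had 12.4 ± 0.70 CPM with Menthae Herba, 12.4 ± 0.72 CPM with Saposhnikoviae Radix and 12.3 ± 0.43 CPM with Guibi-tang, against 15.1 ± 1.01 CPM with vehicle (SD, n = 3 each), and was called in all 3. IGFBP3, a secreted IGF-binding protein, fell with Menthae Herba (-0.24, adjusted p = 0.0248) and Guibi-tang (-0.25, adjusted p = 0.0258). The kinase NUAK2, itself a YAP feedback gene, fell with Soyo-san (-0.23, adjusted p = 0.0451) and Okbyeongpung-san (-0.33, adjusted p = 0.00503). The membrane protein CRIM1 fell with Menthae Herba (-0.25) and Soyo-san (-0.14) against vehicle, and with both against 20 µg/mL (-0.25, adjusted p = 2.48e-05, and -0.18, adjusted p = 0.00977). Rising members were FOXF2 with Soyo-san (0.44, adjusted p = 0.00307) and the ectonucleotidase NT5E with Okbyeongpung-san (0.26, adjusted p = 0.00181).

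Actin-regulated targets of MRTF and SRF, which share several genes with YAP, and TGF-beta and SMAD targets were read beside the 9 genes. Of 21 MRTF and SRF genes 6 fell and 1 rose with Menthae Herba, 2 fell with Saposhnikoviae Radix, 3 fell with Guibi-tang, 2 rose with Soyo-san and none was called with Okbyeongpung-san. Of all genes, 3.43% fell and 3.34% rose with Menthae Herba, 0.643% fell with Saposhnikoviae Radix, 1.78% fell and 2.63% rose with Guibi-tang, 2.93% fell and 3.11% rose with Soyo-san, and 1.96% rose with Okbyeongpung-san. The cytoplasmic actins ACTB (-0.22, adjusted p = 0.0278) and ACTG1 (-0.13, adjusted p = 0.0238) were those of Saposhnikoviae Radix, and the same 2 fell with Guibi-tang (-0.19, adjusted p = 0.0386, and -0.14, adjusted p = 0.00436). Of the 15 TGF-beta and SMAD genes, 1 rose and 1 fell with Menthae Herba, none was called with Saposhnikoviae Radix, 2 rose with Guibi-tang, 4 rose and 1 fell with Soyo-san, and 4 rose with Okbyeongpung-san. BHLHE40, a circadian and hypoxia-responsive repressor, rose with Guibi-tang (0.45), Soyo-san (0.37) and Okbyeongpung-san (0.41). It stood above every vehicle library in all 57 extract libraries. The share of all genes that did so is not given here, and vehicle and place in the order cannot be told apart.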

How the data were processed

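Total RNA of 60 A549 libraries was sequenced as 100-base paired-end reads after a directional MGIEasy preparation, per the labels. The authors deposited RSEM expected counts per gene; per the submitters' processing notes FastQC 0.11.9, Trim Galore 0.6.5, STAR 2.7.3a and RSEM 1.3.3 were used with hg38, while the annotation release and strand setting are not given in the sources used here. Expected counts were rounded to whole numbers. CPM is the count relative to the library total, which lay between 18330592 and 35308791. Genes were named through GENCODE 29 and a symbol table.

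The 57 libraries of the 19 groups with 3 replicates were fitted together in edgeR 4.0.16 (R 4.3.3, limma 3.58.1; TMM scaling, filterByExpr, quasi-likelihood test), with Benjamini-Hochberg adjustment over 17256 genes within each comparison and a threshold of 0.05. The procedure was tested on simulated data. The genes and all gene lists were chosen with earlier results of these data known, so no p-value here is independent evidence. Named genes were the 9, up to 3 called genes with the largest fold change per list and comparison, and the 5 genes most correlated with CCN1, CCN2 and AMOTL2 (log2 CPM, prior count 2). A gene that this rule would name is not reported here. Alternatives were DESeq2 1.42.0, relative log expression scaling, no filter, a replicate block, the side of the step in the library order as a covariate or as a limit on the libraries, fits of the compared groups alone, omission of each library, and, chosen after seeing the data, omission of mitochondrially encoded genes. Replicate libraries differed by more than counting noise in all 57 within-group pairs (chi-square per degree of freedom 1.86 to 68.0). Same-numbered libraries deviated together in all 3 pairs only for Saengmaek-san at 500 and 20 µg/mL (correlations 0.117, 0.191 and 0.348); the pairing comes from the replicate numbers in the labels. The replicate block changed no call there.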

Additional observations from a re-analysis of the deposited data

Results flagged for a closer look

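CCN1 differed between Menthae Herba and Saposhnikoviae Radix at 500 µg/mL in edgeR's test of that difference, with a log2 fold change of 0.21 for the first over the second; the call was lost without the filter on low counts (adjusted p = 0.177) and without any 1 of 4 libraries. For Saengmaek-san over Guibi-tang it was 0.24, but the Saengmaek-san libraries are those of the contrast that chose CCN1, so this value is a description. That call was also lost without the filter (adjusted p = 0.0776), in a fit of the 2 groups alone (adjusted p = 0.369) and without either of 2 libraries.

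AJUBA lay on both sides of vehicle at 500 µg/mL without passing the test: all libraries of Menthae Herba were above all of vehicle (log2 fold change 0.22, edgeR adjusted p = 0.256), and all of Soyo-san (-0.17, adjusted p = 0.39) and of Okbyeongpung-san (-0.28, adjusted p = 0.17) were below. Soyo-san and Okbyeongpung-san lie across the step in the library order from vehicle, and both turn positive with the side of the step as a covariate. Between these extracts AJUBA was not called (0.11, adjusted p = 1.0), and Menthae Herba was not tested against either.

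Between 500 and 20 µg/mL, all CCN1 libraries at the higher dose were below those at the lower with Guibi-tang (-0.25) and above them with Soyo-san (0.0669, not called), and the difference between these extracts was not tested. AMOTL2 was likewise above with Saposhnikoviae Radix (0.0365) and below with Soyo-san (-0.0547) and Okbyeongpung-san (-0.0888). None of the 3 was called, and Saposhnikoviae Radix was not tested against either of the others. Separation of 3 libraries from 3 says little alone, and the share of all genes that showed it is not given here.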

How the results depend on the processing

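Of the 66 called gene results, 36 were called under all alternatives, and none changed sign; DESeq2, relative log expression scaling, the replicate block and omission of mitochondrially encoded genes lost 0 of the 66, no filter lost 6, the step covariate 8 and fits of 2 groups alone 16. With the replicate block the numbers of genes called at 500 µg/mL against vehicle were 3, 5, 6, 5 and 6, those at the lower doses summed to 37, and the block changed no other call; the libraries otherwise share only a number. Menthae Herba against vehicle gave 3 called genes, 5 with the step covariate or from libraries before the step alone and 6 in a fit of 2 groups. For 500 against 20 µg/mL, Menthae Herba gave 0, and 1 under those 3 settings; Guibi-tang and Soyo-san gave 1 each, 2 with the covariate and 0 in fits of 2 groups. Menthae Herba over Saposhnikoviae Radix gave 1, 0 without the filter and 2 under the same 3 settings; Saengmaek-san over Guibi-tang gave 1, 0 without the filter or in a fit of 2 groups, and 2 with the covariate or from libraries before the step. Leaving out 1 library gave 3 to 5 for Saposhnikoviae Radix against vehicle, and 0 to 1 for Guibi-tang and for Okbyeongpung-san between doses. It gave 0 to 1 for the herbs, 0 to 2 for Saengmaek-san over Guibi-tang, and 23 to 38 at the lower doses. Against vehicle at 500 µg/mL, Soyo-san lost AXL without the third vehicle library or its own first. Okbyeongpung-san lost LATS2 or CCN2 there whichever library of either group was left out. In CPM without mitochondrially encoded genes, AMOTL1 lay below vehicle in 9 rather than 16 of the 54 replicated extract libraries and PTPN14 in 13 rather than 21. Depth limits ANKRD1 most, with 216 counts in its lowest library; the causes of these shifts were not tested.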
